A study of Mus musculus with 8 samples.

Results

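Far summits are the ATAC-seq peak summits of brown adipose tissue (BAT) that lie more than 50 kb from every curated mRNA start and outside exons. They were chosen by position alone. A summit is the base at which a peak of ATAC-seq reads is highest, and its distance was taken to the nearest transcription start site (TSS) of a curated RefSeq mRNA (an NM transcript) on chromosomes 1 to 19. The rule kept 5173 of the 31729 summits on these chromosomes, or 16.3% (95% Wilson interval 15.9 to 16.7), out of 32173 in the whole list. Of these, 1891 lay in introns of long genes and 3282 in gene deserts, meaning outside the body of every gene with an NM transcript.

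Nuclei came from the BAT of 2 WT mice and 2 Dot1L-BKO mice on chow, 12 weeks old, which were held at 4 °C for 4 hours, and each mouse was processed separately. WT mice were littermates with floxed Dot1l and no Cre. Dot1L-BKO mice carried floxed Dot1l and Ucp1-Cre, so that the gene was deleted in Ucp1+ cells and other cell types of the tissue kept it. The summits of the 4 ATAC-seq libraries were deposited as 1 list named for WT versus Dot1L-BKO. The sources used here do not say if reads of Dot1L-BKO mice were the control of the peak calls. If they were, a summit and its score would stand for signal in WT over Dot1L-BKO mice, and if not, for open chromatin in the libraries called together, so that what they say of either genotype is unknown. The list gives each summit a score, the −log10 of the q-value from the peak caller MACS2, and no value for any library. Depth and replicate error are therefore unknown, and the genotypes could not be compared. All values below are descriptions of this list, and their intervals cover counting error only. Summits within 1 kb of a TSS were found at 10 of 10 brown adipocyte markers and 6 of 6 general adipocyte markers, beside 46.8% of all genes. The same count was 2 of 8 for endothelial, 2 of 7 for macrophage and leukocyte, 2 of 6 for fat progenitor and mural, 1 of 6 for skeletal muscle and 0 of 4 for neuron markers. The part of these other cells in the far summits was not tested.

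Open chromatin far from genes is where many enhancers lie. An enhancer is a stretch of DNA bound by transcription factors that can raise the transcription of a gene at a distance by looping to its promoter, and in brown adipocytes such elements are known to be bound by C/EBP, EBF and NFI factors, PPARγ with RXR, and hormone receptors. Distal DNA is also rich in dispersed repeats, copies of retrotransposons that are alike across the genome. Mouse LINE-1 elements, a textbook example, have a GC-rich promoter at their 5′ end followed by a long reading frame. Reads from such copies cannot always be given to the right place.

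Far summits held recurrent as well as single-copy sequence. To group members by sequence, windows reaching 100 bp to each side of each summit were joined into a family where they aligned over at least 100 bp at 80% identity or more. The 3 largest families held 826, 255 and 98 members, and the fourth held 33. A member of each with a high score, and with at least the median number of copies in its family, is shown here as an example of recurrent sequence, in 121 bases of the genome (mm10, plus strand) with the summit in the middle. Capitals mark matches to the EBF pattern TCCCNNGGG and the C/EBP pattern TTNNGCAA in family 1 and to the GC box GGGCGG in family 3, each searched on both strands.

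Family 1, gene desert near Ipo5, chr14:120777677-120777797: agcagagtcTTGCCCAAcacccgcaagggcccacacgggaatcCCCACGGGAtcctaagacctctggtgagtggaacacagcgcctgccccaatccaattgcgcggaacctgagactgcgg
Family 2, gene desert near Fat3, chr9:16833883-16834003: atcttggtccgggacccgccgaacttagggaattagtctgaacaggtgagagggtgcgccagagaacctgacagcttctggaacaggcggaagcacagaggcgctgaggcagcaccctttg
Family 3, intron of Dnm3, chr1:162338861-162338981: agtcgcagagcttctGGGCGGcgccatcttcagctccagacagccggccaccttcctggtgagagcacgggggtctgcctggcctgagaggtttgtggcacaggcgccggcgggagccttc

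For contrast, the next windows were found in 1 copy each, as judged by the central 31 bases. They belong to genes described below and are shown because each is the highest far summit at its gene. Capitals mark the C/EBP pattern at Sh3pxd2a and Acsl1, the AP-1 pattern TGANTCA at Cebpb, the EBF pattern at Ppargc1a and the RUNX pattern TGTGGTT at Prdm16. The Dio2 and Nfia windows held none of the 13 patterns searched for.

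Sh3pxd2a, intron 8 of 13, chr19:47302292-47302412: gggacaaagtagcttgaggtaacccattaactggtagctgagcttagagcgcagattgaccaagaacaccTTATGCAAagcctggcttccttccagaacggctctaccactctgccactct
Acsl1, gene desert, chr8:46404454-46404574: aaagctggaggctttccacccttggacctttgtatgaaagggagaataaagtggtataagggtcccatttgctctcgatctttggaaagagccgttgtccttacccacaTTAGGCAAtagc
Cebpb, gene desert, chr2:167777605-167777725: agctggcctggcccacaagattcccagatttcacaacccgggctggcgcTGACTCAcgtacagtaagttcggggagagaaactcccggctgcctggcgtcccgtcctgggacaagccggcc
Ppargc1a, gene desert, chr5:51041111-51041231: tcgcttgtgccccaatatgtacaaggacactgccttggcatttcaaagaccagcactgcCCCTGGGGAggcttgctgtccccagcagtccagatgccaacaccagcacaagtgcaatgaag
Prdm16, intron 1 of 15, chr4:154536388-154536508: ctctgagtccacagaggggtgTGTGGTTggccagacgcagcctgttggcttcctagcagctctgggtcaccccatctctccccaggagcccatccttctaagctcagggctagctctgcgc
Dio2, gene desert, chr12:90644011-90644131: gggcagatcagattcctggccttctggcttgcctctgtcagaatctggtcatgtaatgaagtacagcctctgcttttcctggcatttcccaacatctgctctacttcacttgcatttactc
Nfia, intron 10 of 10, chr4:98104405-98104525: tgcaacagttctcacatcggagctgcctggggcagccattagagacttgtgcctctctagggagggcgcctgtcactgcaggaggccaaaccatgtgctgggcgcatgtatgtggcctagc

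Far summits were sparse for the length of sequence they cover. The sequence more than 50 kb from a TSS and outside exons made up 55.8% of chromosomes 1 to 19, without runs of N, and held 16.3% of their summits. There were 3.87 far summits per Mb (exact Poisson interval 3.76 to 3.97). Sequence at 5 to 50 kb from a TSS, outside exons, had 12.1 per Mb (11.9 to 12.4), which is 3.14 times as many. Within 1 kb of a TSS the number was 237 per Mb. By chromosome, the density of far summits ran from 2.69 per Mb on chromosome 14 to 5.76 per Mb on chromosome 17.

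Introns held more far summits for their length than gene deserts, but they also lay nearer to starts. Over all distances, the density was 5.06 per Mb (4.84 to 5.30) in far introns and 3.40 per Mb (3.29 to 3.52) in far deserts, a ratio of 1.49. The median distance was 87742 bp for intronic and 118473 bp for desert members. Within ranges of distance the gap was smaller or turned, with 8.25 and 7.76 per Mb at 50 to 75 kb, 6.46 and 6.36 at 75 to 100 kb, 4.88 and 3.98 at 100 to 200 kb, 2.16 and 2.26 at 200 to 500 kb and 1.23 and 1.37 at 500 to 1000 kb for introns and deserts. Introns held 36.6% of the far summits (35.3 to 37.9) on 27.9% of the far sequence. Intron 1 held 189 members (9.99%) and introns past intron 2 held 1407 (74.4%), with the length of each not measured. For 690 intronic members (36.5%) the nearest TSS belonged to another gene than the host.

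The distance to the nearest TSS had a median of 103062 bp, with quartiles at 69110 and 192927 bp. More than 100 kb away lay 2666 members, more than 500 kb away 373 and more than 1 Mb away 116. The density fell from 7.98 per Mb at 50 to 75 kb (7.59 to 8.38) to 6.40 at 75 to 100 kb, 4.29 at 100 to 200 kb, 2.24 at 200 to 500 kb, 1.35 at 500 to 1000 kb and 1.33 beyond (1.10 to 1.60). No step stood at the limit of the rule, where 428 summits lay at 45 to 50 kb with a median score of 4.43, and 396 at 50 to 55 kb with a median of 4.20.

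Members of the 3 families did not share this fall with distance. The families together made up 1179 far summits, or 22.8% (21.7 to 24). Their density was 0.653 per Mb at 50 to 75 kb and 1.17 per Mb beyond 1 Mb, while that of all other far summits went from 7.32 to 0.161 per Mb, a fall by a factor of 45.5. The families therefore made up 8.19% of far summits at 50 to 75 kb (6.94 to 9.63), 19.7% at 100 to 200 kb, 45.8% at 200 to 500 kb and 87.9% beyond 1 Mb (80.8 to 92.7). Only 14 summits beyond 1 Mb were outside the families.

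**Figure D1:**
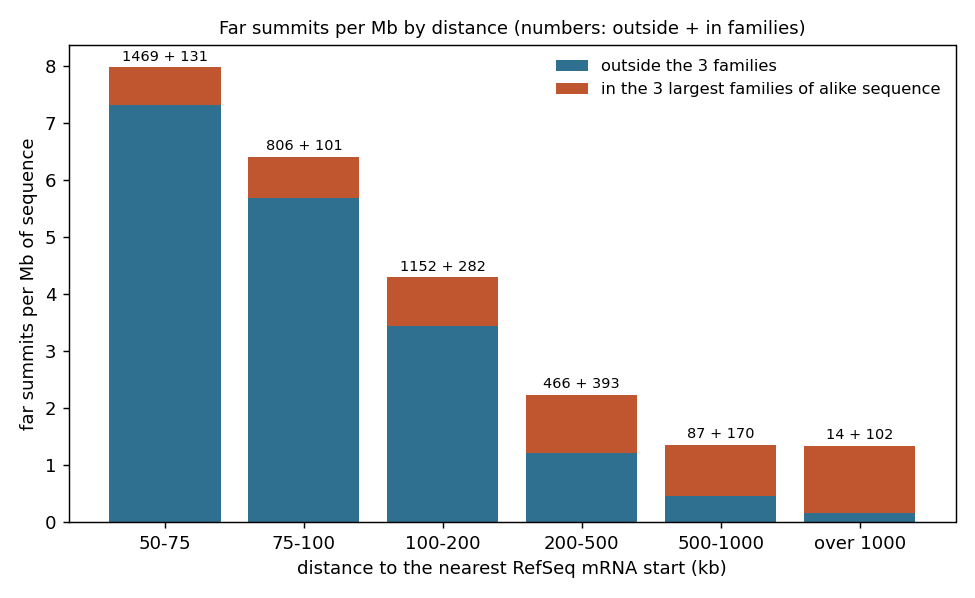
Far summits per Mb of sequence (vertical axis) by distance to the nearest RefSeq mRNA start in kb (horizontal axis), with members of the 3 largest families of alike sequence stacked on all others and their numbers above each bar. The lower part falls from 7.32 to 0.161 per Mb, while the upper part stays between 0.653 and 1.17 per Mb.

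The families were recurrent, masked and rich in GC. The reference gives repeats in lower case, and 99.7% of the family members had their summit in such masked sequence, against 13.3% of the other far summits. The 31 bases at the centre of the window occurred in the genome a median of 2226, 3198 and 624 times in families 1, 2 and 3. Their median GC content was 62.7%, 65.2% and 66.9%, against 52.2% for the other far summits. A run of at least 1000 codons without a stop lay within 8 kb of 60.3% of family 1, 82.0% of family 2 and 71.4% of family 3, and of 1.90% of the other far summits. The reference used here names no repeat families, so these windows were not assigned to any.

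Families were more frequent in far deserts than in far introns, at 29.1% (27.5 to 30.6) and 11.9% (10.5 to 13.4) of members. Near genes they were rare, with 3.78% of the summits at 5 to 50 kb (3.43 to 4.18) and 1 of the 10271 summits within 1 kb of a TSS. Of windows laid every 10 kb over the far sequence, 0.570% were alike to a family member. These shares were set by alignment to the far members themselves, so that nearer summits and grid windows could join a family but not found one. Without the families there were 3994 far summits, 1666 in introns and 2328 in deserts, and the density was 4.46 and 2.41 per Mb, a ratio of 1.85. Within ranges of distance this gap was also smaller, at 7.81 and 6.93 per Mb at 50 to 75 kb, 5.84 (5.23 to 6.50) and 5.59 (5.10 to 6.12) at 75 to 100 kb, 4.22 and 3.04 at 100 to 200 kb and 1.47 and 1.14 at 200 to 500 kb.

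Masked sequence was more frequent at far than at nearer summits when the families were counted. It held 33.0% of far summits and 14% of summits at 5 to 50 kb, a difference of 19 percentage points (Newcombe interval 17.5 to 20.5), and 3.15% of those within 1 kb of a TSS. Far introns had 20.7% and far deserts 40.1%. Outside the families the far share was 13.3%, and that at 5 to 50 kb outside them was not computed. Masked bases made up 35.1% of the far sequence itself. The central 31 bases occurred more than once in the genome for 37.5% of far summits, for 16.1% of summits at 5 to 50 kb and for 16.9% of the grid windows. For far summits outside the families the share was 20.5%.

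The scores of far summits lay under those of summits at promoters. Their median was 4.34 (quartiles 2.92 and 7.38), with 4.34 in both introns and deserts, against 4.16 at 5 to 50 kb and 8.65 within 1 kb of a TSS. A score of at least 10 was reached by 15.9% of far summits (15 to 17.0) and 16.2% of those at 5 to 50 kb, a difference of −0.31 percentage points (−1.53 to 0.94). It was reached by 42.9% of summits within 1 kb, 12.1% of those at 1 to 5 kb (11.2 to 13.2) and 6.84% of those in exons beyond 1 kb (5.87 to 7.97). The difference between far summits and those at 5 to 50 kb had opposite signs in deserts and introns. In deserts, 525 of the 3282 far summits scored at least 10 (14.8 to 17.3%), against 19.3% of intergenic summits at 5 to 50 kb (18.2 to 20.6). In introns the share was 15.8% of far summits and 13.9% of those at 5 to 50 kb, with intervals that overlap. Only a limited set of values occurred, with 1314 distinct scores among the far summits, the commonest of which, 4.16, was shared by 249.

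High scores were less frequent among family members than among the other far summits. A score of at least 10 was reached by 83 of the 1179 (7.04%) and by 741 of the 3994 others (18.6%). The medians were 4.61 in family 1, 3.06 in family 2 and 3.07 in family 3, beside 4.61 for the others, and the highest score was 108 in family 1, 10.5 in family 2 and 9.0 in family 3. Masked sequence was less frequent at higher scores, with 37.6% of far summits under 3 (35.2 to 40.2) and 7.89% at 20 or more (5.22 to 11.8). Outside the families, 20% of desert members and 16.6% of intronic members scored at least 10. There the share was higher at far summits (18.6%) than at those at 5 to 50 kb (16.7%), with a difference of 1.89 percentage points (0.494 to 3.33). The nearer set pools kinds that differ, with 19.3% in intergenic sequence and 13.9% in introns when families are counted. The pooled difference thus depends on the mix of introns and deserts.

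**Figure D2:**
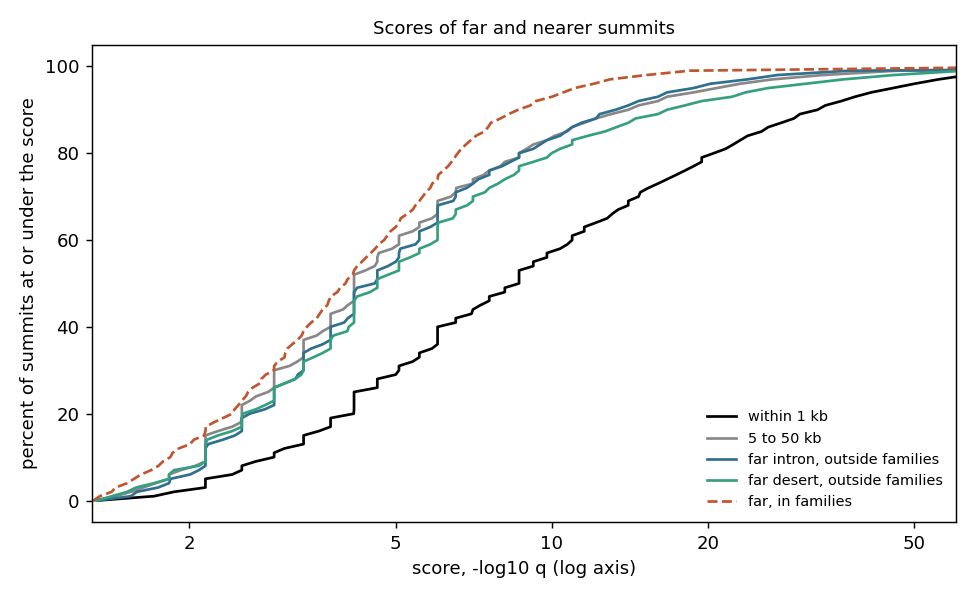
Percent of summits at or under a score (vertical axis) against the score, −log10 q on a log axis (horizontal axis), for summits within 1 kb and at 5 to 50 kb of a start and for far summits in introns, in deserts and in the families. The curve at 5 to 50 kb pools introns and intergenic sequence and holds family members, which those of far introns and deserts leave out. At high scores the far desert curve lies to the right of that at 5 to 50 kb, with a 98th percentile of 45.6 against 33.3. That of far introns is at 27.2. Intergenic summits at 5 to 50 kb are not drawn apart. The family curve rises fastest, and summits within 1 kb, with a median of 8.65, lie to the right.

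The highest far scores stood at sequence that resembles mitochondrial DNA. Mitochondria are abundant in brown adipocytes, and copies of their genome inserted in chromosomes can collect reads from it. A match of at least 200 bp to the mitochondrial genome within 1 kb windows was found at 14 far summits, which were all 6 with a score over 1000, 6 of the 9 from 100 to 1000, 0 of the 29 from 50 to 100 and 2 of the 5129 at 50 or less. Identity was 94.0 to 99.7% for the 6 over 1000 and 71.8 to 90.7% for the other 8. Such matches were not particular to far summits. They were found at 23 of the 31729 summits, of which 7 lay at 5 to 50 kb, and at all 10 with a score over 1000 in the whole list, the highest of which, 13426, was at 5 to 50 kb. Whether mitochondrial reads made these scores was not tested.

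The first of these lay upstream of Ccnh, the gene of cyclin H, at chr13:85127097 with a score of 9313 and a match of 920 bp at 95% identity. It is shown here as an example of such a match, with no pattern marked.

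Ccnh, mitochondrial match, chr13:85127037-85127157: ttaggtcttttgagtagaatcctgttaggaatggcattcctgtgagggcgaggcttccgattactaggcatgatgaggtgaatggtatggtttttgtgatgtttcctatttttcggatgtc

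In deserts, the other 7 of the 8 highest members had mitochondrial matches too. Those nearest to Tyrp1, a melanin synthesis gene, Eea1, an endosome tether, and Galc, a lysosomal enzyme, scored 7615, 3973 and 3971. Those nearest to G6pd2 and Nxph1 scored 2041 and 1710, and those nearest to Fhl4 and Bambi 604 and 293. Among the 8 highest in introns, matches were found in Nedd4l, a ubiquitin ligase gene, with a score of 632, and in Stxbp4 with 568. The other 6 had none and lay in Dlgap2, a postsynaptic scaffold gene (81.7), Zbtb16 (64.4), Tusc3 (54.0 and 47.5), Cradd, a cell death adaptor (53.8), and Gramd4 (49.1). The pair in Tusc3 had a central 31-mer in 10 copies each.

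Without mitochondrial matches, the highest desert members were at chr17:39845463, nearest to Esp38, with a score of 192, and at chr17:13552661, nearest to Tcp10c, with 157 and a central 31-mer in 63 copies. The third was of family 1 and scored 108.

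The 5 members farthest from any TSS were all in masked sequence. They lay 2483727 bp and 2162261 bp downstream of Cntnap5b, 2476237 bp downstream of Pcdh9, 2163090 bp upstream of Cdh20 and 2084285 bp downstream of Olfm4, of which Pcdh9 and Cdh20 encode cadherins. Their scores ran from 2.20 to 5.0, and their central 31-mers occurred 280 to 5682 times in the genome.

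Far summits in introns were unevenly shared among host genes. Of 2887 genes with at least 5 kb of far intron sequence, 816 held a far summit (28.3%) and 177 held 3 or more (6.13%). Of 4726 genes nearest to at least 5 kb of far desert sequence, 1518 had a far summit there (32.1%) and 342 had 3 or more (7.24%). The 8 host genes with most members held 20 to 50 each, and they were named for that number.

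Tns1, the gene of tensin 1, a focal adhesion protein, held 50 far summits over 155 kb. Their scores ran from 1.41 to 15.4 with a median of 4.38, and 6 scored at least 10. All 50 lay within 50 kb of a predicted RefSeq start of Tns1, which the rule did not count, with the nearest at 0.109 kb. Each was in 1 copy.

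Sh3pxd2a, which encodes a scaffold of podosomes, held 32, of which 15 in intron 8 of 13. The highest scored 34.2 and 23.4, and all others were under 10. The highest window, whose sequence is given above, held the C/EBP pattern. Of these members, 30 formed the far summit group with most members, with gaps of at most 10 kb, at chr19:47280357-47347294. A predicted start of Sh3pxd2a lay within 50 kb of 20 of the 32.

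Zbtb16, a zinc finger transcription factor gene, held 30, of which 7 scored at least 10. The highest were 64.4, 37.6, 24.6, 19.4, 18.1 and 16.7, at 89.2 to 128 kb from its start. RefSeq gives no predicted start for Zbtb16. The window at 37.6 had both the EBF and the C/EBP pattern, and that at 18.1 had the DR1 pattern of PPAR and RXR.

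Ctif, a translation initiation factor gene, held 27, with 2 scores of at least 10 (19.4 and 13.4). Col4a1 and Col4a2, neighbouring genes of basement membrane collagen, held 24 and 20 with medians of 3.32 and 4.10, and their highest scores were 17.8 and 26.1. Chst11, a chondroitin sulfotransferase gene, also held 20 but had a lower highest score, 16.7, than Col4a2.

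Pde4d, which encodes an enzyme that degrades cAMP, the second messenger of cold signals in brown fat, held 22. Their median score was 5.79, and 7 scored at least 10, with 40.2, 28.6, 24.4, 23.8 and 20.2 as the highest. From the NM start of Pde4d they were 413 to 1279 kb away. However, 18 of the 22 lay within 50 kb of a predicted start of the gene, and the highest was 3.87 kb from one.

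Among genes nearest to desert summits, the most members at 1 gene was 28. The Cebpb desert held 24 members at 55.5 to 119 kb downstream of the gene, which encodes an adipogenic transcription factor. The highest scored 59.5, 39.3, 21.6 and 10, and the median was 4.16. The top member was 47 bp from the start of Gm32287, a predicted noncoding RNA, and the next was 864 bp from another start of it.

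Tomm20, the gene of an import receptor of the mitochondrial outer membrane, had 27 desert members at 50.6 to 171 kb downstream. Of these, 10 scored at least 10, and the highest were 65.4, 64.4 and 35. The desert between Cibar2 and Gse1 held 28 members on the side of Cibar2 and 25 on that of Gse1, with highest scores of 16.7 and 30.9 and 3 of at least 10 on each side. Gadd45g, a stress response gene, had 24 with a median of 6.21, of which 8 scored at least 10, up to 37.6 at 333 kb. Rab11fip4, the gene of a Rab11 effector, had 22 with a median of 4.84, of which 6 scored at least 10, up to 30.9. Gm21119 also had 22, of which 20 were in more than 1 copy, and its highest score was 25.5.

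**Figure D3:**
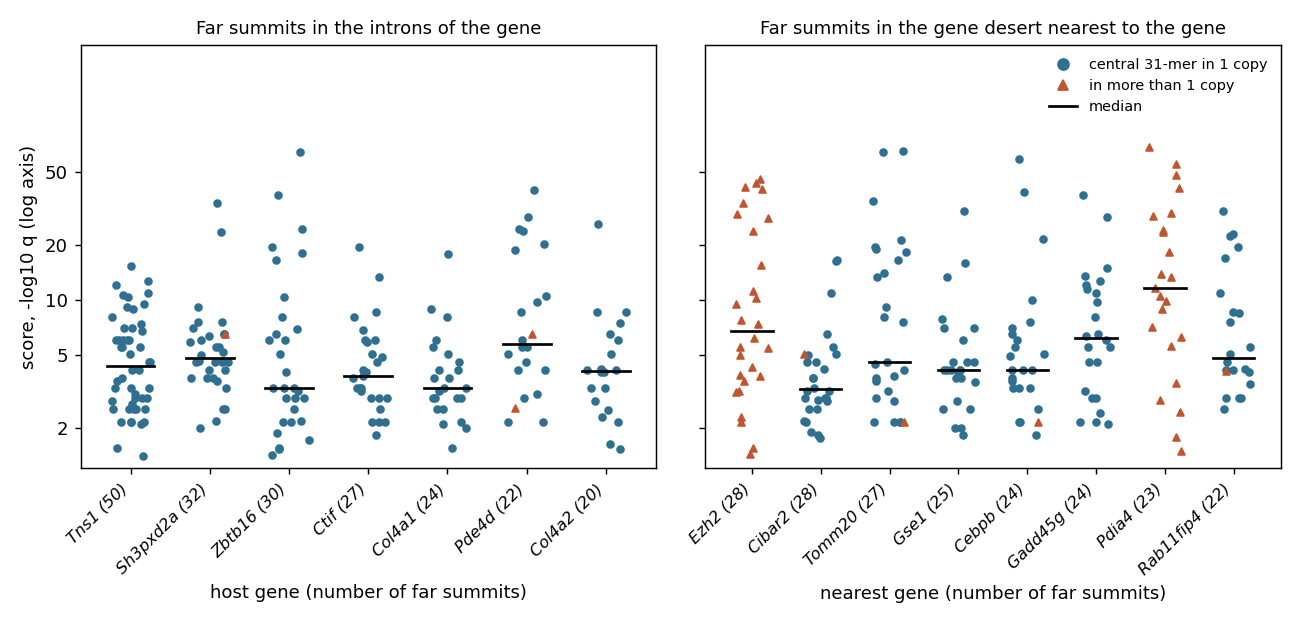
Score of every far summit, −log10 q on a log axis (vertical axis), at 7 of the 8 host genes with most members (left) and the 8 genes nearest to most desert members (right), with the median as a line. Triangles are members whose central 31-mer occurs in more than 1 copy, which include all members at Ezh2 and Pdia4.

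The desert between Ezh2 and Pdia4 was of another kind. Ezh2 encodes a Polycomb histone methyltransferase and Pdia4 a chaperone of the endoplasmic reticulum, and between them lay 51 far summits, 28 nearest to Ezh2 and 23 nearest to Pdia4. All 51 had a central 31-mer in more than 1 copy. The interval also held 15 copies of Rn4.5s, a small noncoding RNA gene of 174 bp, of which 1 is annotated and the others were found by sequence alone, over 123 kb with a median spacing of 4337 bp. Within 1 kb of a copy lay 28 of the members, and the median distance of all 51 was 891.5 bp. At a median spacing of 4337 bp, 1 kb to each side of every copy covers a large part of the array. The count therefore does not place the members at the copies. Scores of the 51 members were high, with a median of 9.58, 24 of at least 10 and a highest of 68.5. The 28 members on the side of Ezh2 were the group with the second most members, at chr6:47651968-47686441, and the third, with 27, lay in Tns1 at chr1:73985813-74044591. The highest window on each side is shown because the same run of bases occurs in both, shifted.

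Ezh2 side, chr6:47673161-47673281: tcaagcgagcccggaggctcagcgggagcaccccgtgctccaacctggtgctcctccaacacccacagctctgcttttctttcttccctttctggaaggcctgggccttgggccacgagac
Pdia4 side, chr6:47744976-47745096: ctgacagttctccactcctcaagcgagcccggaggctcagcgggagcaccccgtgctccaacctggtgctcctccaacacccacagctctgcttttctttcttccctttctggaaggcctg

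Another array lay between Gas8 and Rhou. It held 51 copies of Rn5s, the gene of 5S ribosomal RNA (121 bp), of which 48 are annotated, and 20 far summits. All 20 lay inside the array and within 1 kb of a copy, which its median spacing of 1697.5 bp made nearly certain. Their median distance to a copy was 88.5 bp, and all 20 had a central 31-mer in more than 1 copy. Their median score was 4.88 and the highest 13.1. How reads were shared among such copies was not tested.

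Clustering was not the rule for far summits. With gaps of at most 10 kb, 2951 members (57.0%) stood alone, 1404 (27.1%) were in 253 groups of 3 or more and 872 (16.9%) in 93 groups of 5 or more. The median score was 4.27 alone and 4.16 in groups of 5 or more. Masked sequence held 44.2% of those alone and 16.6% of those in groups of 5 or more.

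Far summits at genes of brown fat were counted in a list of 64 genes known in brown adipocytes, of which 63 were on chromosomes 1 to 19. Of the 29 with at least 5 kb of far intron sequence, 17 held a far summit (58.6%), against 28.3% of all such genes. For deserts it was 21 of 37 (56.8%) against 32.1%. With 3 or more members there were 8 hosts and 8 desert genes. By length, the density was 16.6 per Mb in introns and 13.9 per Mb in deserts, against 5.06 and 3.39 per Mb for all genes. These values pool genes, and the intronic density of the median gene was 6.33 per Mb in the list and 0 for all genes. Distance from starts, along which the density fell, was not matched between the gene sets. The list was set with earlier results of these data known, so that these counts are a description.

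The 174 far summits at brown fat genes were seldom of the families, at 5 of 174 (2.87%). Their median score was 5.07, and 40 (23.0%) scored at least 10. A list of 55 brain synapse and adhesion genes with long introns gave other values. Of its 55 genes 31 held a far summit in an intron (56.4%), but the density was 0.985 per Mb in introns and 1.3 per Mb in deserts. Of the 99 members at these genes 72 were of the families (72.7%), the median score was 3.57 and 7 (7.07%) scored at least 10. Outside the families, 12 of the 55 had an intronic member (21.8%) and 17 of 29 in the brown fat list (58.6%), beside 23.5% of all long genes.

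Among transcription factors and coregulators of the brown fat program, Prdm16, which commits cells to the brown fate, held 17 intronic far summits. The highest scored 35.8, 23.8 and 12.2 at 100, 106 and 89.1 kb from its start, and the median was 4.16. Nfia, a factor that opens brown fat enhancers, held 13, with 37.7 as the highest at 327 kb, then 10.9 and 10.7. Ebf3 held 5, from 2.15 to 5.53. Zfp516, an activator of Ucp1, held 3 with scores of 16, 6.53 and 4.04, all within 50 kb of a predicted start of the gene.

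Ppargc1a, the coactivator of mitochondrial biogenesis, had far summits both in introns and in its deserts. The 5 intronic scores were 9.78, 4.16, 3.32, 2.15 and 1.71. Of the 9 in deserts, 39.3 at 513 kb downstream and 30.5 at 315 kb upstream were the highest, and the others were at most 6.53. Its relative Ppargc1b held 8 in introns, all low, from 1.58 to 4.21. Foxo1, a factor in insulin signalling, had 14 in its desert, with scores of 30.9, 14 and 10.9 at 333, 275 and 249 kb, and 1 of the 14 was of family 2.

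Of nuclear receptor genes, Ppara, a receptor for fatty acids, had 5 upstream at 50.7 to 65.8 kb with scores of 14.7, 8.65, 7.05, 1.87 and 1.41. Rxra, the partner of PPAR receptors, had 4 with scores of 10.9, 5.87, 3.75 and 3.75, and 2 of these windows had the C/EBP pattern. Nfib, the gene of an NFI factor, had 4 in its desert, at 11.5, 6.53, 2.92 and 1.43, and the lowest was of family 2.

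Among enzymes and receptors, Dio2, which activates thyroid hormone in cold-exposed BAT, had 4 desert members. They scored 41.0, 12.2, 9.21 and 7.38 at 95, 93.4, 148 and 159 kb, and 2 of the windows had the EBF pattern. Acsl1, an acyl-CoA synthetase gene of fatty acid oxidation, had 4 upstream, at 61.9, 20.9, 10.4 and 8.65. Igf1r, the receptor of insulin-like growth factor, held 3 in introns at 13.3, 2.53 and 2.53. Dot1l had no far intron sequence and no far desert sequence nearest to it, so its lack of far summits was set by the rule. Ucp1, the uncoupling protein of brown fat, had no such sequence either. Its start was the nearest to 1 far summit, in an intron of Tbc1d9 at 59.8 kb with a score of 2.26.

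**Figure D4:**
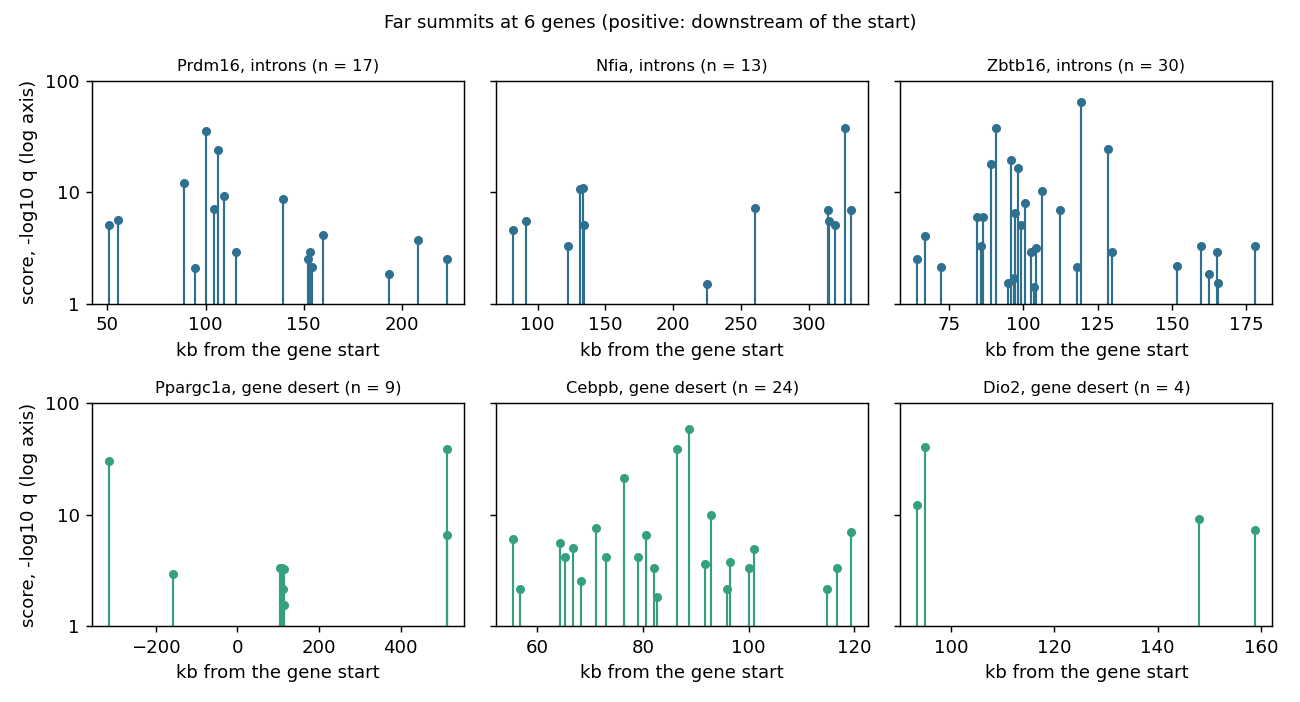
Score of each far summit, −log10 q on a log axis (vertical axis), against its distance in kb from the nearest NM start of the gene (horizontal axis, negative upstream) in introns of Prdm16, Nfia and Zbtb16 and in the deserts of Ppargc1a, Cebpb and Dio2. High members stand among low ones, as at Zbtb16, where 7 of 30 reach 10.

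Some far summits lay at starts of other RNAs, which the rule did not use. Within 1 kb of a noncoding or predicted RefSeq start lay 344 members, or 6.65% (6.0 to 7.36), 83 in introns (4.39%) and 261 in deserts (7.95%). At 5 to 50 kb from an NM start the share was 8.92%. Members at such a start had a median score of 5.07 against 4.21 for the others, and 24.1% against 15.3% scored at least 10. The highest were at D130051D11Rik (92.7, between Wnt7b and Ppara), Gm52238 (80.8), 1700028E10Rik (76.7) and 4930526I15Rik (72.7), within 32 to 269 bp of the start of each, and these 4 were chosen after their values were seen.

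The share of far windows with a sequence pattern depended on the families. All 13 patterns were searched within 100 bp of the summit, on both strands, and those of CTCF, NFI, DR1, MEF2 and the glucocorticoid receptor are named without letters. The EBF pattern was in 18.7% of far windows and the C/EBP pattern in 22.2%, but in family 1 they were in 84.7% and 77.2%, as in the sequence shown above. Outside the families the shares were 6.63% (5.90 to 7.45) and 12.8% (11.8 to 13.9). The GC box was in 63.5% of family 2 and 94.9% of family 3, and in 5.71% of the other far windows.

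Outside the families, the interval of the difference between far windows and those at 5 to 50 kb left out 0 for 7 of 13 patterns. The C/EBP pattern was in 12.8% of far and 10.2% of nearer windows, a difference of 2.61 percentage points (1.43 to 3.83), with 10% in grid windows and 6.13% in grid windows weighted to the GC content of the far windows. The AP-1 pattern was in 9.86% and 8.69%, a difference of 1.18 (0.117 to 2.29), with 6.16% in grid windows and 5.09% after weighting. The EBF pattern was in 6.63% and 7.24%, a difference of −0.60 (−1.51 to 0.36), with 1.47% in grid windows and 4.22% after weighting. The pattern of the glucocorticoid receptor, a cortisol-binding factor, was in 0.776% and 0.400%, a difference of 0.377 (0.104 to 0.718), and in 0.119% of grid windows (0.097% after weighting).

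Patterns rarer at far than at nearer summits were those of CTCF, the factor that anchors chromatin loops, GATA and the GC box. CTCF was in 0.426% against 1.14%, a difference of −0.71 (−0.99 to −0.39), with 0.037% in grid windows and 0.129% after weighting. The GATA pattern, AGATAAG, was in 0.876% against 1.77%, with 3.11% in grid windows and 1.96% after weighting. The GC box was in 5.71% against 7.49%, with 1.22% and 5.27% in grid windows. MEF2 was in 0.601% against 0.347%, a difference of 0.254 (0.012 to 0.562). The remaining shares outside the families were 3.43% for RUNX, 1.10% for DR1, 0.951% for ETS (ACNGGAAGT), 0.601% for ERR (TCAAGGTCA) and 0.576% for NFI. For RUNX, DR1, ETS, ERR and NFI the interval of the difference from nearer summits included 0. A match is a run of letters and was not taken as a bound site.

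Among far windows outside the families, the C/EBP pattern had the largest difference between high and low scores in percentage points. It was in 17.9% of those with a score of at least 10 (15.4 to 20.9) and 9.31% of those under 5 (8.15 to 10.6), a difference of 8.64 percentage points (5.74 to 11.8). For the AP-1 pattern it was 13.5% against 9.03%, a difference of 4.47 (1.86 to 7.35), and for the GC box 9.18% against 4.30%. The EBF pattern was in 8.23% against 6.08%, a difference of 2.15 (0.071 to 4.54). Rarer patterns whose interval also left out 0 were those of the glucocorticoid receptor (1.48% against 0.608%), MEF2 (1.08% against 0.421%) and ETS (1.75% against 0.795%), and their ratios, 2.44, 2.56 and 2.21, were above the 1.93 of C/EBP, as was the 2.13 of the GC box.

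**Figure D5:**
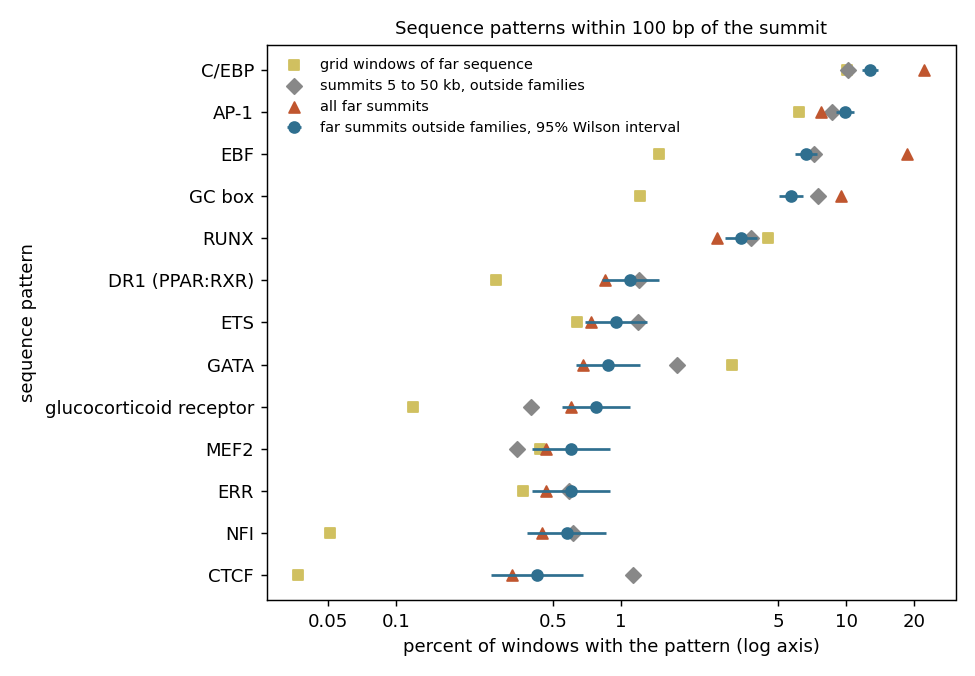
Percent of windows within 100 bp of the summit that hold each of 13 sequence patterns (log axis), for all far summits, far summits outside the 3 families with 95% Wilson intervals, summits at 5 to 50 kb outside the families, and grid windows of the far sequence. For EBF and C/EBP the triangle of all far summits (18.7% and 22.2%) stands apart from the circle without the families (6.63% and 12.8%).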

How the data were processed

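Nextera DNA libraries for ATAC-seq were made from the BAT of 2 WT mice and 2 Dot1L-BKO mice and sequenced as paired ends. The authors used Partek Flow to align reads to mm10 (BWA) and to call peaks (MACS2 2.1.1, ATAC mode), keeping those under a q-value of 0.05 and over an enrichment of 2.0. The submitters' processing notes also name CASAVA, bcl2fastq 2.2 and cutadapt 1.2.1. Shifting of reads and the handling of duplicate, mitochondrial and multi-mapped reads are not given in the sources used here. The deposited list gives each summit a −log10 q-value and no value per library. RNA-seq samples were not used.

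Positions were placed on the RefSeq annotation and sequence of GRCm38.p6, which is mm10. Distance was taken to NM starts, and the length of far sequence left out runs of N. Shares have 95% Wilson intervals, differences Newcombe intervals and densities exact Poisson intervals. Copies of the central 31-mer were counted on both strands of the genome. Alike windows and mitochondrial matches were found with blastn 2.17.0 (e-value of at most 1e-10 for the latter). Grid windows of the same length as summit windows were laid every 10 kb over the far sequence, and for GC weighting were binned by 5%. The scripts were tested on simulated data. The work was done in Python 3.11.15 with pandas 2.3.3, numpy 2.4.6, matplotlib 3.10.9 and scipy 1.17.1.

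Named were the 8 highest members in introns and in deserts, the 5 farthest, the 8 genes with most members of each kind (ties broken by the highest score), brown fat genes with 3 or more members, and the 3 groups with most members. A host gene that this rule names is not reported here. Members, lists and patterns were chosen with earlier results of these data known, and the families, small RNA arrays and distances to predicted starts after seeing the data. Alternatives changed the distance, the score minimum, the transcripts, the merging of summits, the chromosomes and the recurrent sequence kept.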

Additional observations from a re-analysis of the deposited data

Results flagged for a closer look

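Chromosome X was outside the rule, and its far summits were counted apart. By the same distance and exon criteria it held 208 far summits of 386 in all, 2.05 per Mb of far sequence, with a median score of 3.71 and a highest of 55.7. Of the 208, 21 lay in introns, 96.6% had a central 31-mer in more than 1 copy, and 145 (69.7%, 63.2 to 75.6) were alike to the 3 families. They are listed here because the comparisons above leave this chromosome out.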

How the results depend on the processing

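No paired analysis was possible because scores exist for the list as a whole and not by mouse, which also prevented leaving out a replicate. Of 65 values of the 7 main results under other settings, 24 stayed within the interval of the reported value (for counts, within 1.5 times) and 41 moved. The results are the number of far summits (5173), the intron share (36.6%), the density (3.87 per Mb), the median score (4.34), the masked share (33.0%), the share near another RNA start (6.65%) and the share of long genes with a member (28.3%), and values follow in this order where they moved. A limit of 100 kb gave 2666, 29.3%, 2.68 per Mb, 45.1% masked, 4.35% and 31.1%. A limit of 25 kb gave 8200, 41.7%, 4.93 per Mb, 26.9% masked, 7.78% and 25.6%. A score of at least 5 gave 2293, 1.71 per Mb, a median of 8.01, 27.5% masked, 8.11% and 16.8%, and of at least 10 gave 824, 0.616 per Mb, a median of 15.4, 16.7% masked, 10.1% and 7.59%. Counting the starts of NM and XM transcripts gave 29.4% in introns, 3.46 per Mb, 36.8% masked, 5.29% and 25.3%. Counting all RefSeq starts gave 1964, 2.38 per Mb, 53.8% masked, 0.0% by construction and 21.4%. Exons of all RefSeq transcripts gave 3.68 per Mb, 34.7% masked and 4.39% near another start. Adding chromosome X gave 3.74 per Mb and 35.3% masked. Calling a window masked by at least 50% of its bases gave 30.8%, and a window of 5 kb around other RNA starts gave 16.5%. Merging summits within 500 bp moved none of the 7. Another 2 alternatives, on recurrent sequence, were chosen after seeing the data, and of their 14 values 1 stayed and 13 moved. Outside the 3 families, values were 41.7%, 2.99 per Mb, a median of 4.61, 13.3% masked, 8.51% and 23.5%, and with the central 31-mer in 1 copy they were 3233, 42.9%, 2.42 per Mb, a median of 4.61, 7.73% masked, 8.54% and 18.8%. Pattern shares within 50 bp moved for 12 of 13 patterns, and outside the families for 5 of 13. At a mitochondrial match of 500 bp, 7 of the 14 members were left. The list gives no read depth, so what depth limits cannot be stated.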

Other observations

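Chromosome Y held 49 far summits of 58 in all, of which 48 had a central 31-mer in more than 1 copy and 24 were alike to the 3 families. Their density was 0.602 per Mb and their median score 5.07.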
